A study of Mus musculus with 96 samples.

Results

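The comparison described here is that of differentiated C2C12 myotubes kept in 5% oxygen with no mitochondrial inhibitor against myotubes in an ordinary incubator. Its members are 6 of the 96 samples of the series: the 3 replicates labelled Tubes_Hyp_DMSO_None and the 3 labelled Tubes_DMSO_None. The series measured RNA in myoblasts, myotubes and post-mitotic C2C12 cells given mitochondrial inhibitors, and its other low-oxygen myotubes received oligomycin, an inhibitor of the mitochondrial ATP synthase. C2C12 is a single line of mouse myoblasts that stops dividing, fuses and forms contractile myotubes when serum is lowered, so all samples share 1 genetic background.

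All 6 samples were untransduced cells after 4 days in low-serum media, and all received the solvent DMSO for 10 hr before lysis. The low-oxygen cultures stood in a 5% oxygen incubator from the evening before the DMSO was added until lysis. The oxygen level of the ordinary incubator was not given in the sources used here, and the 3 low-oxygen samples all came from column 9 of the 96-well plate whereas the DMSO samples came from columns 6, 7 and 8. Oxygen and the separate incubator therefore cannot be told apart. Plate column can be fitted as a term, because 2 other myotube samples in the ordinary incubator, which received oligomycin with the uncoupler BAM15 or the complex I inhibitor piericidin, also stood in column 9, and the effect of that term is given with the counts. Nothing in the labels says that replicates were separate cultures, so the p-values measure the spread between these samples, which may be technical.

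Cells sense oxygen mainly through prolyl hydroxylases, which use oxygen to mark the alpha subunit of hypoxia-inducible factor (HIF) for recognition by the von Hippel-Lindau protein and for degradation. When oxygen falls, the alpha subunit persists, pairs with Arnt and binds a short DNA sequence, the hypoxia response element, at genes of glucose uptake, glycolysis, pH control, mitochondrial turnover and blood vessel growth. In skeletal muscle, whose oxygen supply changes with exercise and altitude, this programme is known for moving fuel use from respiration towards glycolysis.

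Between 9810751 and 11835417 estimated counts were assigned per sample, and 21157 to 21966 genes had a count in the DMSO samples. Low-oxygen replicate 3 stood apart with 25610 genes with a count, against 21354 and 21204 in replicates 1 and 2, and the count of genes called without it is given below. Markers of the labelled identity were abundant. The summed normalized count of 10 myotube markers ran from 192350 to 196960 in DMSO and from 197830 to 206150 in low oxygen. Of these 10 markers, 4 were called higher and 4 lower. The 6 fibroblast markers were not low either, with sums of 42932 to 44924 in DMSO and 51376 to 53189 in low oxygen. Of 6 adipocyte markers, 1 was at 0 in all 6 samples, the 1 that could be tested was not called, and the sum ran from 23.6 to 36.5 in DMSO and from 16.3 to 34.2 in low oxygen. The sum of 6 endothelial and blood cell markers ran from 27.9 to 32.1 and from 39.1 to 49.8, and 1 of the 2 tested, Cd68, was called higher, a call lost without DMSO replicate 1 (adjusted p = 0.0809) or low-oxygen replicate 3 (0.113).

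Low oxygen alone changed the expression of 2758 of 12491 genes tested, or 22.1% (edgeR quasi-likelihood F test, Benjamini-Hochberg adjusted p under 0.05). Of these, 1536 were higher (12.3% of genes tested) and 1222 lower (9.78%), and 268 rose and 290 fell by at least 2-fold. Without low-oxygen replicate 3 the test called 2348 genes. The groups did not overlap, with the lowest sample of the one above the highest of the other, at 18.6% of genes in the higher direction and 17.4% in the lower. The median log2 fold change over all genes was 0.02. Values below are counts normalized with DESeq2 size factors, fold changes are low oxygen over DMSO, and each ± beside a log2 fold change is its standard error.

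With plate column as a term, a fit added after the values were seen in which column 9 rests on 2 samples in the ordinary incubator, the test called 1356 genes, 718 higher and 638 lower, of which 1282 were among the 2758. Sensors, glycolysis and collagen hydroxylation kept their counts of 3, 18 and 9 genes higher, 34 of the other targets of HIF were higher instead of 38, and the cell cycle, kinetochore and spindle lists had 20, 30 and 26 genes lower instead of 23, 37 and 27. DNA replication had 16 lower instead of 34. Immediate early genes had 5 higher instead of 11, sarcomere genes 12 instead of 20, glycogen 5 instead of 8 and angiogenic and vascular signals 4 instead of 7, and complex I had 2 lower instead of 6, complexes III, IV and V 1 instead of 9 and collagens 2 instead of 6. Of 412 called list and named genes, 131 lost their call and 0 changed direction. Those described in the text are Ppp1r3b, Pygl, Pdk3, Pdp1, Mpc2, Uqcrfs1, Idh3a, Nrf1, Tfam, Msmo1, Sc5d, Srebf1, Sdf2l1, Myod1, Mymk, Pvalb, Igf1, Ccne2, Pcna, Cdkn1c, E2f1, Oasl2, Angpt1, Fgf2, Loxl3, Spry1 and Cd68, and Myh1, not called otherwise, was lower (adjusted p = 0.0103).

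Among the gene lists plotted, targets of HIF and glycolysis had the highest medians and lists of cell division genes the lowest. Members of 31 gene lists, of 6 further lists drawn up once the values were known and of 5 lists of cell type markers were counted, and the plot of list members under low oxygen gives their spread.

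**Figure D1:**
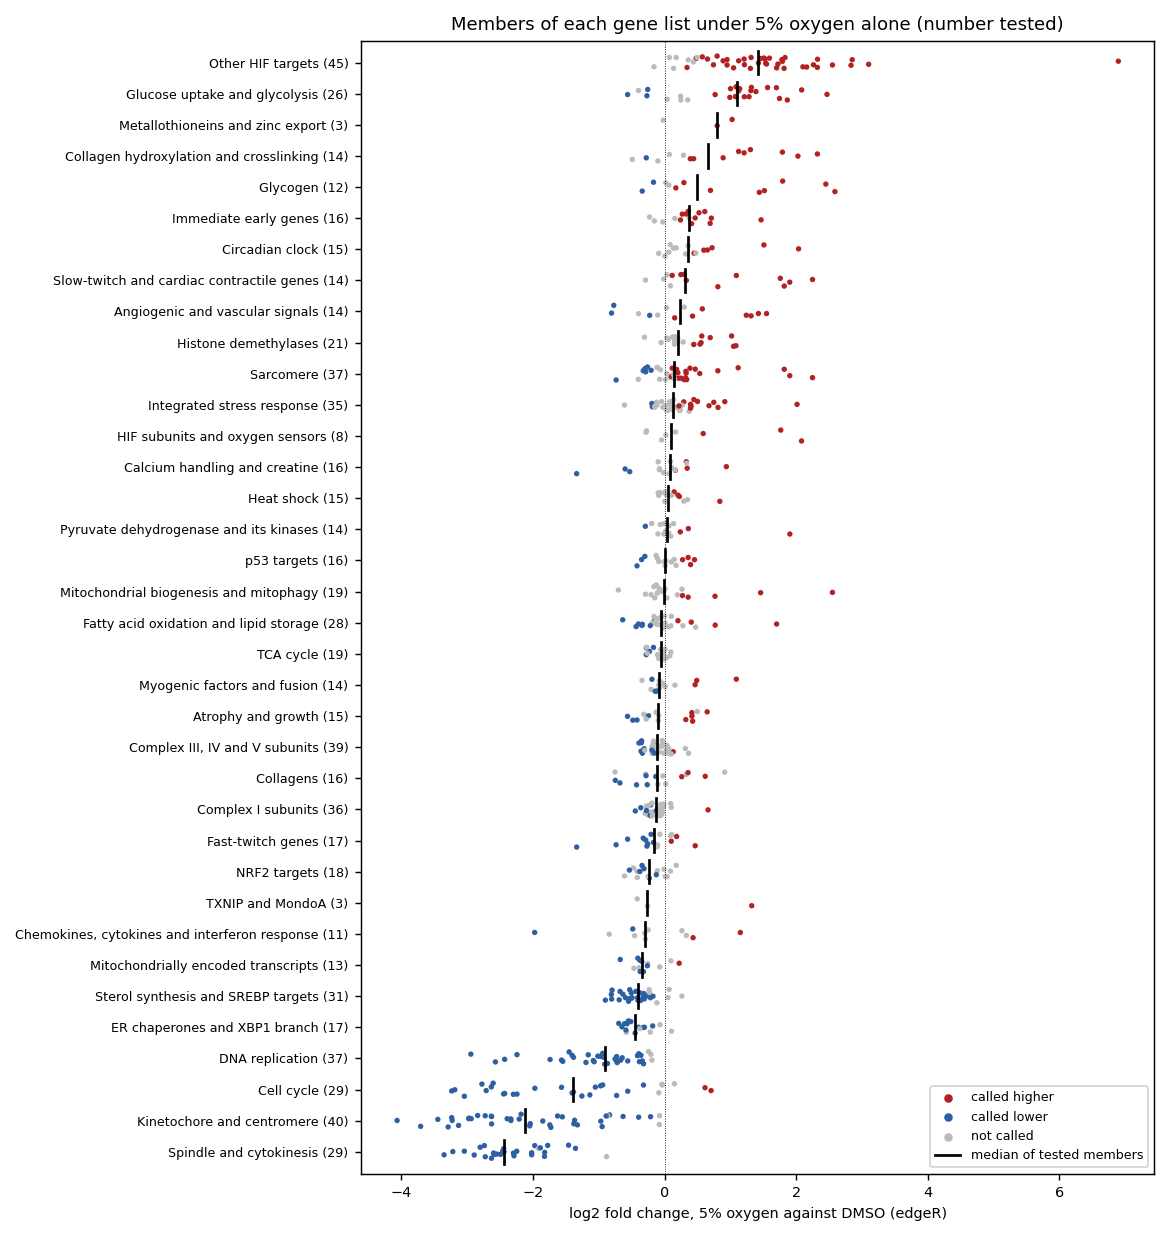
Each point is a tested gene of the list named on the vertical axis, placed by its log2 fold change in 5% oxygen against DMSO (n = 3 each). Red points were called higher, blue lower and grey not called, and the black tick is the median of the list. Targets of HIF and glycolysis lie furthest right, with medians of 1.43 and 1.11, and spindle and kinetochore genes furthest left, with medians of -2.44 and -2.11. The point at the far right is Nos2, whose DMSO samples held no counts, so that its fitted value is no measure of its fold.

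Among the sensors of oxygen, the transcripts of 2 prolyl hydroxylases and of the von Hippel-Lindau protein rose, whereas the hydroxylase genes Egln2 (-0.27) and Hif1an (0.17) and the HIF subunits did not pass the test. Hif1an passed without DMSO replicate 2 (log2 fold change 0.28, adjusted p = 0.0208). Of 8 members tested, 3 were higher and 0 lower. Egln3, which encodes the prolyl hydroxylase PHD3, had normalized counts of 1043, 1209 and 1280 in the DMSO samples and 4928, 4815 and 5067 in the low-oxygen samples. All 3 low-oxygen samples stood above all DMSO samples, and the increase was 4.23-fold (log2 fold change 2.08 ± 0.068, edgeR adjusted p = 3.20e-17). Egln1, which encodes the main hydroxylase PHD2, went from 63.4, 67.1 and 68.9 to 224, 214 and 234 (log2 fold change 1.77 ± 0.16, edgeR adjusted p = 3.21e-09). The third member called, Vhl, had counts of 266, 335 and 333 in DMSO and 392, 496 and 503 in low oxygen (log2 fold change 0.59 ± 0.097, edgeR adjusted p = 5.14e-05). These groups did not overlap either, but the difference was smaller than for the hydroxylases. Hif1a, the oxygen-sensitive subunit, had counts of 1209, 1295 and 1314 and 1281, 1190 and 1193, which overlapped (log2 fold change -0.05 ± 0.24, edgeR adjusted p = 0.924). Its partner Arnt had a log2 fold change of 0.02 and did not pass. Epas1 and Hif3a, which encode the other alpha subunits, stayed below 5 normalized counts in every sample and were not tested.

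Glucose uptake and glycolysis rose as a pathway. Of 26 members tested, 18 were higher and 3 lower, with a median log2 fold change of 1.11, against 0.02 over all genes. The glucose transporter gene Slc2a1 had counts of 368, 483 and 527 in DMSO and 1333, 1507 and 1600 in low oxygen (log2 fold change 1.70 ± 0.093, edgeR adjusted p = 4.75e-13). Hk2, for the hexokinase that traps glucose in the cell, went from 519, 510 and 608 to 1402, 1304 and 1241 (log2 fold change 1.28 ± 0.091, edgeR adjusted p = 5.84e-11). In both genes the groups were separate, and the lowest low-oxygen sample was at least as far above the highest DMSO sample as the DMSO samples were from each other. Pfkfb3, whose enzyme makes the activator of phosphofructokinase, had 64.5, 124 and 136 counts in DMSO, with replicate 1 the lowest, and 394, 400.2 and 382 in low oxygen (log2 fold change 1.87 ± 0.20, edgeR adjusted p = 1.19e-07).

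Every step of the pathway between phosphofructokinase and lactate held at least 1 gene that rose. The isozymes Pfkl and Pfkp had log2 fold changes of 1.57 and 1.08, the aldolases Aldoa and Aldoc of 0.99 and 2.08, and Tpi1 and Gapdh of 1.13 and 1.00. Pgk1, which encodes phosphoglycerate kinase, had counts of 7295, 7928 and 9071 in DMSO and 27000, 27020 and 26720 in low oxygen (log2 fold change 1.75 ± 0.064, edgeR adjusted p = 2.31e-16), and Ldha, which encodes the lactate dehydrogenase subunit that favours lactate production, had 11490, 12240 and 13200 and 30520, 30650 and 30150 (log2 fold change 1.32 ± 0.042, edgeR adjusted p = 1.98e-17). In these 2 abundant transcripts the low-oxygen samples lay close together and far above all DMSO samples. Pgam1, Eno1 and Pkm rose by 1.14, 1.21 and 1.09 on the log2 scale. The lactate exporter gene Slc16a3 went from 405, 428 and 553 to 1150, 1131 and 1129 (log2 fold change 1.31 ± 0.10, edgeR adjusted p = 2.46e-10).

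The 3 members that fell were the forms typical of mature muscle fibres: Pfkm (-0.26, adjusted p = 0.000973), Pgam2 (-0.56, adjusted p = 1.34e-06) and Eno3 (-0.27, adjusted p = 3.36e-08), with the general isozyme of each step higher. The insulin-responsive transporter gene Slc2a4 (-0.40, adjusted p = 0.327) and the heart-type lactate dehydrogenase subunit gene Ldhb (0.04, adjusted p = 0.823) did not pass. Several glycolytic genes, Gapdh, Pgk1 and Ldha among them, have processed pseudogenes with nearly the same sequence, between which reads can be divided in counting, so their levels carry that uncertainty.

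**Figure D2:**
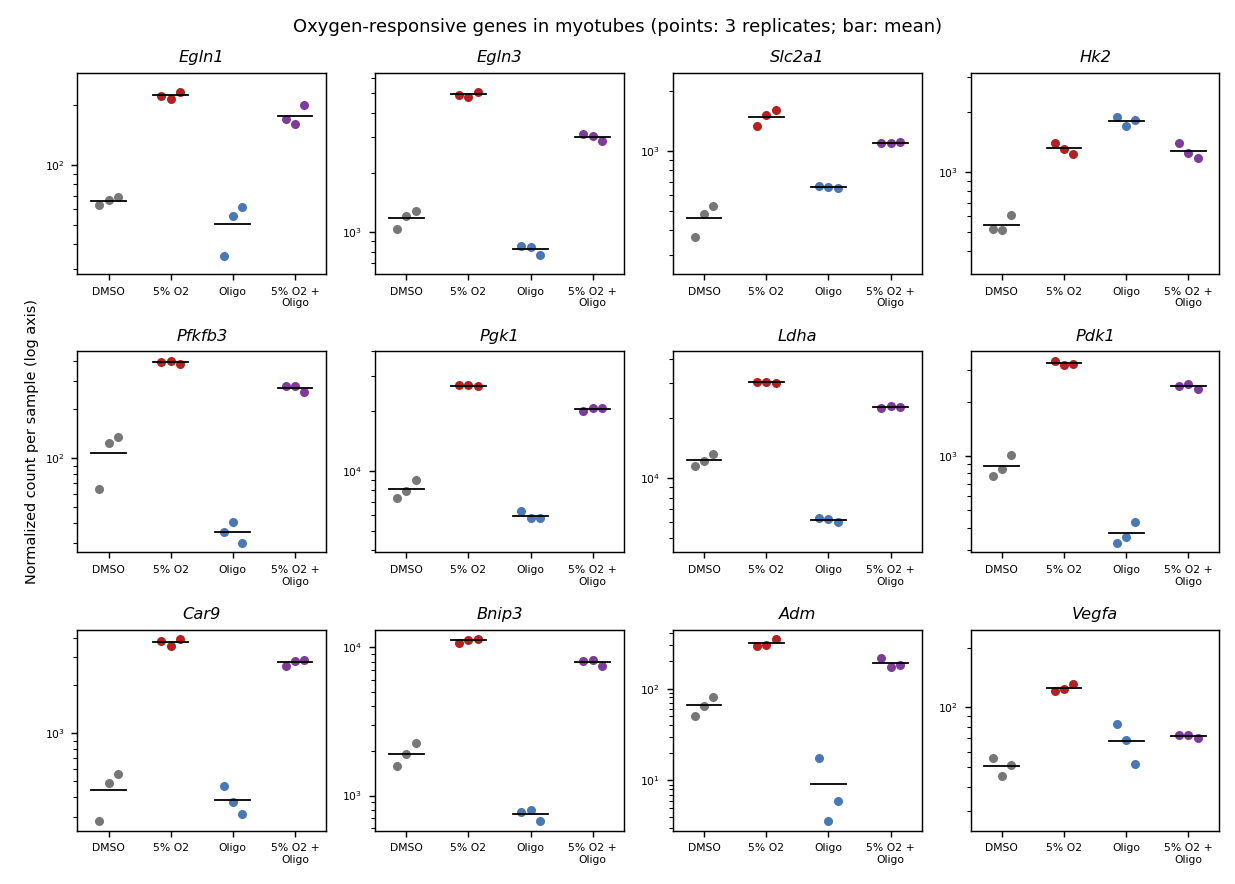
Normalized counts per sample, on log axes, of 12 oxygen-responsive genes in myotubes under DMSO, 5% oxygen, oligomycin, and 5% oxygen with oligomycin. Points are the 3 replicates and the bar is their mean. In each gene the 3 samples in 5% oxygen with DMSO lie above the 3 DMSO samples. With oligomycin, the samples in 5% oxygen lie above those in the ordinary incubator for all genes shown except Hk2, where they lie below, and Vegfa, where the groups overlap.

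Among genes of pyruvate dehydrogenase, its kinases and phosphatases and the pyruvate carrier, the largest change was in an inhibiting kinase. Pdk1, a kinase that inactivates pyruvate dehydrogenase, had counts of 771, 852 and 1017 in DMSO and 3373, 3178 and 3236 in low oxygen. The groups were far apart, and the increase was 3.74-fold (log2 fold change 1.90 ± 0.081, edgeR adjusted p = 4.08e-15). Of 14 members of the list, 3 were higher (2 with any sample left out) and 1 lower, beside 12.3% and 9.78% of all genes. The other 2 that rose, Pdk3 (0.24) and the phosphatase gene Pdp1 (0.36), moved less, as did Mpc2, a subunit of the pyruvate carrier, which fell (-0.29). The call of Pdk3 was lost with any 1 of the 6 samples left out (adjusted p from 0.0637 to 0.181). Subunits of the dehydrogenase itself had log2 fold changes between -0.10 and 0.14 and did not pass.

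Glycogen metabolism followed the same direction, with 8 of 12 members higher and 2 lower. Ppp1r3b and Ppp1r3c, which bring protein phosphatase 1 to glycogen and so favour its synthesis, rose by 2.59 and 1.79 on the log2 scale. Gbe1, the branching enzyme, rose by 1.44 and Gys1, the muscle glycogen synthase, by 0.70. Pygl, the liver-type phosphorylase, had counts of 0, 7.56 and 7.88 in DMSO and 22.8, 19.6 and 44.4 in low oxygen (log2 fold change 2.45 ± 0.60, edgeR adjusted p = 0.00365). The 2 that fell were the muscle and brain phosphorylases Pygm (-0.17) and Pygb (-0.34), and neither passed without low-oxygen replicate 3 (adjusted p = 0.138 and 0.0546). Pygm also lost its call without DMSO replicate 2 or 3 or low-oxygen replicate 1 (0.0923, 0.103 and 0.0907), and Pygb without DMSO replicate 1 (0.0763).

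Of 45 tested targets of HIF outside these pathways, 38 were higher and 0 lower, with a median log2 fold change of 1.43, and 5 of the 50 listed were too low to test. Car9, a carbonic anhydrase at the cell surface that takes part in acid export, rose most among genes with a mean of at least 50 counts in the list. Its counts were 280.3, 490.2 and 552 in DMSO and 3815, 3538 and 3929 in low oxygen. DMSO replicate 1 was the lowest sample, the groups were far apart, and the increase was 8.58-fold (log2 fold change 3.10 ± 0.19, edgeR adjusted p = 4.69e-12). Its relative Car12 went from 40.8, 37.8 and 73.8 to 391, 311 and 378 (log2 fold change 2.83 ± 0.27, edgeR adjusted p = 1.10e-08). Ak4, a mitochondrial adenylate kinase, had counts of 89.2, 125 and 155 and 819, 972 and 855 (log2 fold change 2.85 ± 0.20, edgeR adjusted p = 4.70e-11).

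Bnip3 encodes a receptor in the outer mitochondrial membrane that marks mitochondria for degradation. Its counts were 1578, 1895 and 2271 in DMSO and 10720, 11230 and 11420 in low oxygen (log2 fold change 2.55 ± 0.095, edgeR adjusted p = 2.45e-16), so that the lowest low-oxygen sample was several times the highest DMSO sample. The related receptor gene Bnip3l rose by 1.46 on the log2 scale. Mgarp, whose product acts in mitochondrial transport and shape, went from 49.4, 45.3 and 64.0 to 320.3, 298 and 268 (log2 fold change 2.49 ± 0.19, edgeR adjusted p = 3.11e-10), and Ankrd37, an ankyrin repeat gene, from 76.3, 97.3 and 119 to 499.5, 522 and 436 (log2 fold change 2.33 ± 0.18, edgeR adjusted p = 2.13e-10). No sample of either group overlapped the other group in these genes.

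Signals to vessels and other cells were mixed. Adm, the gene of the vasodilator peptide adrenomedullin, had counts of 50.5, 65.2 and 80.7 in DMSO and 289.9, 298 and 349.5 in low oxygen (log2 fold change 2.26 ± 0.21, edgeR adjusted p = 9.92e-09). Apln, which encodes the peptide apelin, went from 82.7, 93.5 and 78.8 to 502, 752 and 472 (log2 fold change 2.77 ± 0.33, edgeR adjusted p = 4.49e-07), with low-oxygen replicate 2 the highest. The endothelial growth factor gene Vegfa had lower counts, 55.9, 45.3 and 51.2 in DMSO and 120.5, 124 and 130.4 in low oxygen, and its groups did not overlap (log2 fold change 1.31 ± 0.20, edgeR adjusted p = 1.78e-05). Of 14 angiogenic and vascular members tested, 7 were higher and 3 lower, with a median log2 fold change of 0.23. Angptl4 and Ctgf rose by 1.43 and 1.24, and the angiogenesis inhibitor gene Thbs2 (-0.77) and the growth factor genes Angpt1 (-0.23) and Fgf2 (-0.81) fell. The call of Angpt1 was lost without DMSO replicate 3 (adjusted p = 0.0647) and that of Fgf2 without low-oxygen replicate 1 (0.0526).

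Nos2, the inducible nitric oxide synthase, had no counts in any DMSO sample and normalized counts of 14.1, 16.6 and 12.7 in low oxygen. Against a floor of 3 counts per DMSO sample the mean in low oxygen was at least 4.84-fold higher (edgeR adjusted p = 0.000329). Setting Nos2 at this bound left the median of the list at 1.43. The 7 tested targets that did not pass were Pnrc1, Kdm4b, Stc1, Hmox1, Bhlhe41, Tfrc and Igfbp3, with log2 fold changes from -0.16 for Igfbp3 to 0.50 for Pnrc1. Hmox1 passed without low-oxygen replicate 3 (adjusted p = 0.0496).

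The genes of largest change with a mean of at least 50 counts also held some outside the lists. Sprr1a, which encodes a protein of cornified epithelium and is also induced in stressed heart muscle, went from 11.8, 7.56 and 17.7 to 101, 133 and 148 (log2 fold change 3.37 ± 0.43, edgeR adjusted p = 1.34e-06). Krt19, a keratin that binds to the costameres of striated muscle, went from 41.9, 43.4 and 53.2 to 291, 279.8 and 330.5 (log2 fold change 2.71 ± 0.15, edgeR adjusted p = 5.63e-13). Vwa1, an extracellular matrix protein gene, went from 130, 138 and 182 to 875, 824 and 888 (log2 fold change 2.54 ± 0.12, edgeR adjusted p = 2.37e-14). In each of these genes every low-oxygen sample was above every DMSO sample. The remaining 2 of the 15 named in this direction outside the lists were Rgs11, a regulator of G protein signalling, and Galr2, a galanin receptor, with log2 fold changes of 2.73 and 2.45 and fewer than 30 counts in each DMSO sample.

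To show the sequence at which HIF acts, the starts of 5 genes that rose are given. Each is the window from 250 bases before to 50 bases after the start of transcription in RefSeq (GRCm38.p6), read in the direction of transcription, with capitals marking ACGTG or GCGTG on either strand, which reads CACGT or CACGC on the opposite one. The windows are those of Car9 (chr4:43506776-43507075, plus strand), Bnip3 (chr7:138909457-138909756, minus strand), Ankrd37 (chr8:45999801-46000100, minus strand), Mgarp (chr3:51396498-51396797, minus strand) and Pgk1 (chrX:106186850-106187149, plus strand), chosen after their expression was seen.
Car9: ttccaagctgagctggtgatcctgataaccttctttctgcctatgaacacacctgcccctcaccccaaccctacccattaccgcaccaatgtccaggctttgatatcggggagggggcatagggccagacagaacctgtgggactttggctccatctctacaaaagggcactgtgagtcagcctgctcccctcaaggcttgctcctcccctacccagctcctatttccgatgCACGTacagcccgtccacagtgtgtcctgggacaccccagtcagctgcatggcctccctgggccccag
Bnip3: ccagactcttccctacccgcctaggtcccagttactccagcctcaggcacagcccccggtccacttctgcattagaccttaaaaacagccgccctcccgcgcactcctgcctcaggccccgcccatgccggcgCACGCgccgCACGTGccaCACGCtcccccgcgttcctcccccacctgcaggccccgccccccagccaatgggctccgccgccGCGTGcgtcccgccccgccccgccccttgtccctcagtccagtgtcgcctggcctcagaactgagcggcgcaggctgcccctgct
Ankrd37: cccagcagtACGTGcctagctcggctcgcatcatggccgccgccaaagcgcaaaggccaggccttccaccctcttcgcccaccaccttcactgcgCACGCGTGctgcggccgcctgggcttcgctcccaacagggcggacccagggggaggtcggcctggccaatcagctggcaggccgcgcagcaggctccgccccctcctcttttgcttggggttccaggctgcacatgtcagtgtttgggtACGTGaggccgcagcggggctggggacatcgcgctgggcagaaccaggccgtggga
Mgarp: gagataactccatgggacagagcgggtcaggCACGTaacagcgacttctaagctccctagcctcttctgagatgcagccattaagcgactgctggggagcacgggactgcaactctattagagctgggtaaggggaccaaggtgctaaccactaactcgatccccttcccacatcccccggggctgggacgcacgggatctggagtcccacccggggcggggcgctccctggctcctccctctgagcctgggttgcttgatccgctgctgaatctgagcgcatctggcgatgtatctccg
Pgk1: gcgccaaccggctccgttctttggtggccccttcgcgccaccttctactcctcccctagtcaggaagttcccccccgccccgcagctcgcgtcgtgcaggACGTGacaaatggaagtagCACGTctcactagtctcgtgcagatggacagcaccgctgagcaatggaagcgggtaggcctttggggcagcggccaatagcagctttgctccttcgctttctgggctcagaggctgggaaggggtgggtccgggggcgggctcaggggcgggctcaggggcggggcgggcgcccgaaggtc

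In Car9 the match begins 18 bases before the start, and in Pgk1 the 2 matches lie 150 and 131 bases before it. Bnip3 holds 5 matches, 2 of which overlap on opposite strands as CACGTG. The first motif, ACGTG, was found in the windows of 39 of 56 hypoxia, glycolysis, pyruvate dehydrogenase and glycogen list members called higher that had a window in the table (69.6%). The same letters were found for 29.8% of tested genes with a window, 36.7% of genes called higher, 40.7% of those called at least 2-fold higher and 21.8% of all 27025 genes with a window. GCGTG was found for 66.1% of the same list members, 56.6% of tested genes, 58.9% of genes called higher and 52.9% of those called at least 2-fold higher, the last below the share of tested genes. For either of the motifs, which the capitals mark, these shares were 89.3%, 68.3%, 72.0% and 65.7%. A match describes the letters and does not show that a factor bound there. Of the genes named for the largest rises, Sprr1a, Car12, Apln and Galr2 held neither ACGTG nor GCGTG in this window, which says nothing of sequence elsewhere. Krt19, Ero1l, Vwa1, Rgs11 and Ppp1r3b, also among them, had no window and could not be searched. Car9, Ak4, Bnip3, Ankrd37, Mgarp and Adm held at least 1 of the motifs.

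Genes of collagen hydroxylation and crosslinking, whose enzymes mostly use oxygen, were mainly higher, and the collagens themselves were mixed. Of 14 collagen hydroxylation and crosslinking genes, 9 were higher and 1, Loxl3, was lower, a call lost without DMSO replicate 1 (adjusted p = 0.151) or low-oxygen replicate 1 (0.0901). The prolyl hydroxylase genes P4ha1 and P4ha2 rose by 1.13 and 1.79, the lysyl hydroxylase genes Plod1 and Plod2 by 1.30 and 0.89, and the lysyl oxidase genes Lox and Loxl2 by 1.21 and 2.03, all on the log2 scale. Ero1l, an oxidase of the endoplasmic reticulum that supplies disulphide bonds, went from 391, 456 and 552 to 2201, 2332 and 2407 (log2 fold change 2.32 ± 0.10, edgeR adjusted p = 7.10e-15), with no overlap. Of 16 collagen genes tested, 3 were higher and 6 lower. Col12a1 had the largest rise of those called, at 0.62, whereas Col18a1 and Col6a2 fell, at -0.75 and -0.68.

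Histone and DNA demethylases, which also use oxygen, had 8 of 21 members higher and 0 lower, beside 12.3% and 9.78% of all genes. Jmjd6, Kdm3a and the DNA demethylase gene Tet1 rose by 1.09, 1.05 and 1.02 on the log2 scale, and the other 5 by between 0.45 and 0.69. The median of the list was 0.20.

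The 4 lists of cell division genes had lower medians than any other list counted here. In the cell cycle, kinetochore, spindle and DNA replication lists together, 107 of 121 members tested were lower (88.4%) and 2 were higher, and the median log2 fold change was -1.74. The kinetochore, spindle and replication lists were drawn up once this fall was known, so their counts describe it and are no further evidence of its direction. Ccna2, which encodes the S and G2 phase cyclin A2 (chr3:36564865-36572150), had counts of 462, 381 and 358 in DMSO and 22.8, 53.8 and 51.6 in low oxygen. The groups were far apart, with low-oxygen replicate 1 the lowest, and the level fell 9.11-fold (log2 fold change -3.19 ± 0.17, edgeR adjusted p = 2.27e-13). Cdc20, the activator of the anaphase-promoting complex, went from 271, 259.7 and 273 to 20.6, 28.4 and 28.1 (log2 fold change -3.35 ± 0.18, edgeR adjusted p = 4.80e-13). Aurkb, a kinase of the chromosomal passenger complex, went from 138, 139.8 and 97.5 to 5.43, 16.6 and 16.3 (log2 fold change -3.23 ± 0.27, edgeR adjusted p = 1.23e-09).

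At the kinetochore, which joins chromosomes to the spindle, 37 of 40 members were lower and 0 higher. Nuf2, part of the complex that holds microtubules, had counts of 145, 133 and 128 in DMSO and 15.2, 11.7 and 9.96 in low oxygen (log2 fold change -3.45 ± 0.20, edgeR adjusted p = 1.61e-12). The checkpoint kinase gene Bub1b had 182, 162 and 125 and 20.6, 7.83 and 29.9 (log2 fold change -2.97 ± 0.25, edgeR adjusted p = 1.26e-09), with all low-oxygen samples below all DMSO samples. Birc5, which encodes survivin, went from 176, 149 and 148 to 20.6, 20.6 and 18.1 (log2 fold change -2.98 ± 0.23, edgeR adjusted p = 4.41e-10). Zw10, Mis12 and Cenpw were the 3 that did not pass, at -0.08, -0.08 and -0.86.

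Of 29 spindle and cytokinesis genes tested, 27 were lower and 0 higher, with a median of -2.44. The kinase Plk1 had counts of 169, 133 and 89.6 in DMSO and 22.8, 12.7 and 11.8 in low oxygen (log2 fold change -3.04 ± 0.24, edgeR adjusted p = 6.06e-10), and the motor Kif11, which pushes the spindle poles apart, had 150.4, 138 and 95.5 and 15.2, 14.7 and 10.9 (log2 fold change -3.22 ± 0.29, edgeR adjusted p = 3.59e-09). No low-oxygen sample reached the lowest DMSO sample in either gene. Kif22, another motor, and Ect2, an activator of cytokinesis, had log2 fold changes of -2.80 and -2.89, and the mitotic kinase gene Pbk of -3.17.

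DNA replication moved less per gene, with 34 of 37 members lower and a median of -0.91. Within the helicase loaded at origins, Mcm5 fell most (-2.43) and Mcm7 least (-0.73) of the Mcm2 to Mcm7 subunits. Pclaf, a partner of the replication clamp, went from 142, 146 and 99.4 to 11.9, 9.79 and 19.9 (log2 fold change -3.18 ± 0.25, edgeR adjusted p = 3.14e-10), but the clamp itself, Pcna, had a log2 fold change of -0.32 (adjusted p = 0.0158, and 0.112 without low-oxygen replicate 1). Regulators of G1 and of its exit were mixed. The cyclin E genes Ccne1 and Ccne2 fell (-1.26 and -1.05), as did the inhibitor Cdkn1c (-1.14, not passing without low-oxygen replicate 1 at adjusted p = 0.056). Ccnd1, Ccnd2 and Ccnd3 had log2 fold changes of 0.15, -0.03 and -0.04 and the inhibitor Cdkn1a of -0.09, none of which passed. Cdkn1b, which encodes the inhibitor p27, and E2f1 were higher, by 0.71 and 0.61. The call of E2f1 was lost without DMSO replicate 3 (adjusted p = 0.114) or low-oxygen replicate 1 (0.072).

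**Figure D3:**
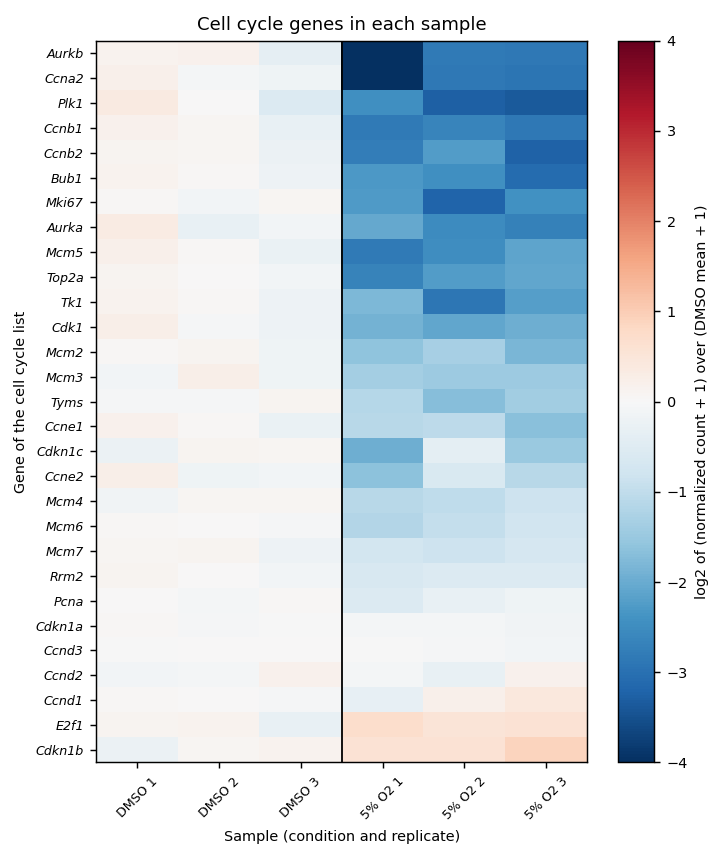
Each row is a gene of the cell cycle list and each column a sample, and the colour gives the log2 of its normalized count plus 1 over the mean of the DMSO samples plus 1. The 3 DMSO columns are near 0, the low-oxygen columns are blue for 23 genes called lower, and Cdkn1b and E2f1 at the bottom are red.

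Reserve cells are undifferentiated cells that remain in a C2C12 myotube culture and can divide again. The summed normalized count of 7 reserve cell and myoblast markers ran from 1551 to 1723 in DMSO and from 996 to 1095 in low oxygen. Of these 7, Mki67, Top2a and Ccnb1, which mark division, fell by 2.30 to 2.78 on the log2 scale, whereas Pax7 (-0.09) and Myf5 (-0.08), which mark the cell type, did not pass the test, Spry1 was lower (-0.49, not passing without DMSO replicate 1 or low-oxygen replicate 2, at adjusted p = 0.0698 and 0.0722) and Cd34 higher (0.47). In bulk RNA, fewer dividing cells and less RNA per dividing cell cannot be told apart, and the part of the markers in the result was not tested. Fibroblast markers, 1 of 4 tested called and that one higher, summed to between 42932 and 44924 in DMSO and between 51376 and 53189 in low oxygen.

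The histone genes Hist2h3b, Hist2h3c2 and Hist1h2ap, whose products package newly made DNA, were also among the 15 genes of largest fall, with log2 fold changes of -3.38, -3.35 and -3.26. Of 19 such histone genes tested, 6 were lower and 0 higher, the median log2 fold change was 0.02 and the highest 1.56. The groups did not overlap in the higher direction at 4 of the 19, beside 18.6% of all genes tested. Hist2h4 passed as higher without DMSO replicate 1 (log2 fold change 2.18, adjusted p = 0.0354). Their copies are nearly identical and most of their RNA lacks the polyA tail that was used for selection, so these values are uncertain.

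For the division genes the starts of Cdc20 (chr4:118437294-118437593, minus strand) and Plk1 (chr7:122159185-122159484, plus strand) are given in the same way, with capitals marking TTTGAA, the core of the cell cycle homology region, and CCAAT, the box bound by NF-Y, on either strand. Genes, motifs and windows were chosen after the values were seen.
Cdc20: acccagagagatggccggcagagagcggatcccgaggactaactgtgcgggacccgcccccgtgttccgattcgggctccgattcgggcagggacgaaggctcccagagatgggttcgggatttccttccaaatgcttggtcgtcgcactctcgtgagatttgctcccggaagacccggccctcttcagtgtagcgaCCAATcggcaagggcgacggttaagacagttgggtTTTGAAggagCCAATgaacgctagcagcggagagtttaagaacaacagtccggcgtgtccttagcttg
Plk1: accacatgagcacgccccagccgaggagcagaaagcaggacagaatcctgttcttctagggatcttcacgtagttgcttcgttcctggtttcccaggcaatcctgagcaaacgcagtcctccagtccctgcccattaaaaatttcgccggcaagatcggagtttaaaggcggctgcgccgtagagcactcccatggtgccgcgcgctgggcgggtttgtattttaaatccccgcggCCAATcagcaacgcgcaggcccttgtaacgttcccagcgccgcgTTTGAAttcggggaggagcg

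TTTGAA begins 18 bases before the start in Cdc20 and 30 bases after it in Plk1. It was found for 41 of 69 cell cycle, kinetochore and spindle list members called lower that had a window (59.4%), against 14.2% of tested genes, 34.4% of genes called at least 2-fold lower and 20.2% of all genes with a window. CCAAT was found for 73.9% of the same members and 43.5% of tested genes. Again the letters alone are described.

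The contractile apparatus was not uniformly higher or lower. In the sarcomere list 20 of 37 members rose and 6 fell, with a median log2 fold change of 0.15. The rises were largest in genes of slow fibres and heart. Myh7, the slow myosin heavy chain (chr14:54970684-54994626), had counts of 1357, 1665 and 1715 in DMSO and 5278, 6032 and 5242 in low oxygen, with no overlap and an increase of 3.53-fold (log2 fold change 1.82 ± 0.088, edgeR adjusted p = 4.95e-14). The slow myosin light chain genes Myl2 and Myl3 went from 95.6, 138 and 114 to 403, 446 and 443 and from 15.04, 17.0 and 17.7 to 69.5, 92.96 and 73.3, with log2 fold changes of 1.90 ± 0.12 and 2.25 ± 0.28. Myh6, the cardiac heavy chain, rose by 1.76, but its sequence is close to that of Myh7 and reads may have been divided between them. Mb, the gene of the oxygen store myoglobin, had counts of 3306, 3846 and 3853 in DMSO and 7749, 8213 and 7257 in low oxygen (log2 fold change 1.09 ± 0.059, edgeR adjusted p = 4.14e-13), and cardiac actin Actc1 rose by 0.81.

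Of 14 slow-twitch and cardiac genes, chosen once the values were known, 10 were higher and 0 lower, and of 17 fast-twitch genes 3 were higher and 9 lower, with medians of 0.31 and -0.17. The 9 include Pfkm, Pgam2, Eno3 and Pygm, which are not contractile genes and were counted above under glycolysis and glycogen. Myh4, the heavy chain of the fastest fibres, had counts of 5811, 5785 and 6521 in DMSO and 3549, 3634 and 3583 in low oxygen, so that all low-oxygen samples were below all DMSO samples (log2 fold change -0.74 ± 0.07, edgeR adjusted p = 1.12e-08). Pvalb, the calcium buffer of fast fibres, had few counts and fell from 42.96, 17.0 and 23.6 to 8.69, 11.7 and 11.8 (log2 fold change -1.34 ± 0.36, edgeR adjusted p = 0.00828), a call that was lost without DMSO replicate 1, the highest sample (adjusted p = 0.106). The fast heavy chains Myh1 and Myh2 did not pass, at -0.11 and -0.11, nor did the slow troponin Tnnt1 (0.04) or the cardiac troponin Tnni3 (-0.29). Myh8 and Myh3, the perinatal and embryonic heavy chains, moved in opposite directions, at 1.12 and -0.26.

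**Figure D4:**
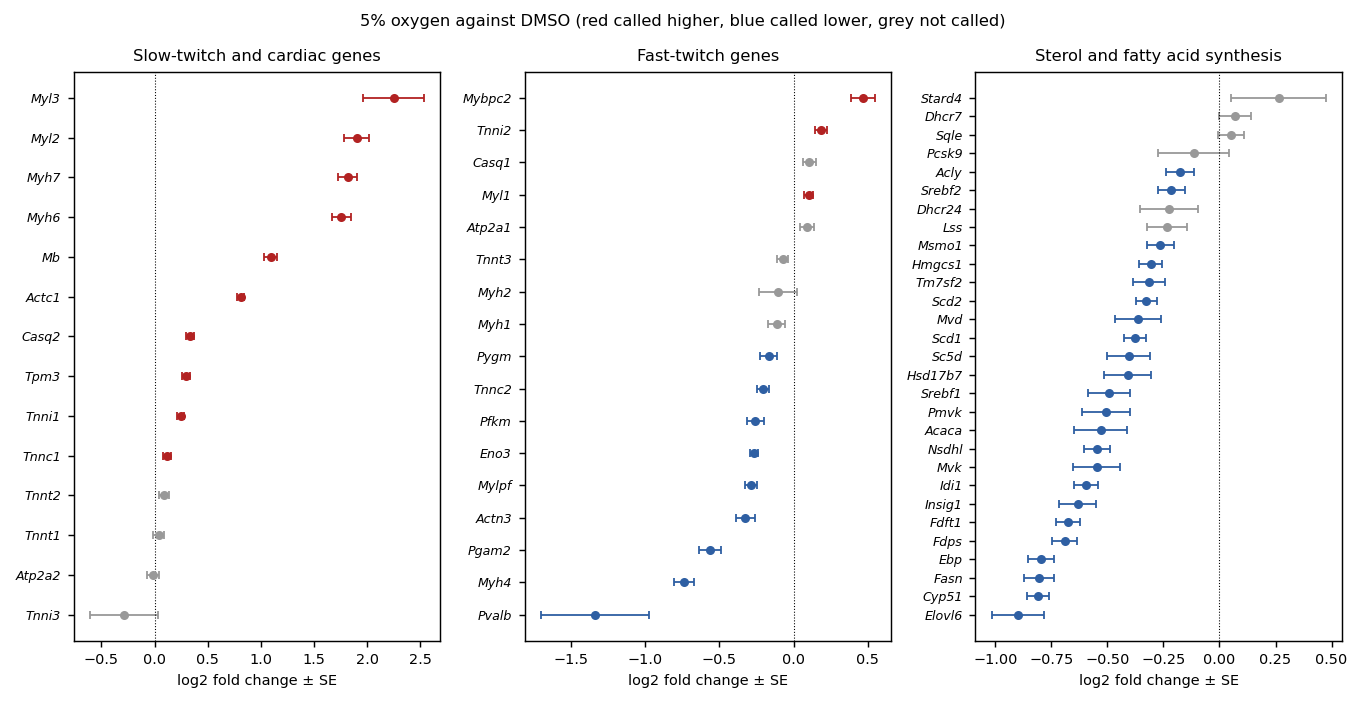
Log2 fold changes in 5% oxygen against DMSO with standard errors (n = 3 each) for slow-twitch and cardiac genes, fast-twitch genes, and genes of sterol and fatty acid synthesis, each panel with its own horizontal scale. Red genes were called higher, blue lower and grey not called. Myl3, Myl2, Myh7 and Myh6 lie above 1.5 in the first panel, 9 of 17 fast-twitch genes are blue, and no gene of the third panel, which shows part of its list, is red.

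Muscle regulators were mixed. Of 14 members of the myogenic and fusion list, 3 were higher and 3 lower, beside 12.3% and 9.78% of all genes tested, and the median log2 fold change was -0.08. Myog, an early differentiation factor, was higher (0.46), as were the fusion gene Mymx (0.49) and Mb, described above, whereas Myod1 (-0.19) and the fusion gene Mymk (-0.12) were lower. In calcium handling and creatine metabolism, 4 of 16 members were higher and 3 lower: the calcium-binding protein gene Casq2 rose by 0.33, and the brain form of creatine kinase, Ckb, fell (-0.60). Among growth and atrophy genes, 5 of 15 were higher (3 without low-oxygen replicate 3) and 4 lower, with the ubiquitin ligase gene Fbxo32 at 0.41, Foxo1 at 0.65 and Igf1 at -0.48.

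Sterol and fatty acid synthesis fell together. Of 31 genes controlled by sterol regulatory element-binding proteins (SREBPs), 25 were lower and 0 higher, with a median log2 fold change of -0.41. Cyp51, which encodes an oxygen-using demethylase of lanosterol (chr5:4081145-4104746), had counts of 2377, 2248 and 2342 in DMSO and 1285, 1366 and 1286 in low oxygen. The groups were separate and the fall was 1.75-fold (log2 fold change -0.81 ± 0.048, edgeR adjusted p = 2.07e-12). Fasn, the fatty acid synthase, went from 1418, 1328 and 1415 to 793, 801 and 764 (log2 fold change -0.80 ± 0.068, edgeR adjusted p = 1.56e-09). The elongase gene Elovl6 had the largest fall (-0.90), and the regulator Insig1 (-0.63) and the factor Srebf1 (-0.49) were lower too. The other oxygen-using steps did not all move: Sqle, which adds the first oxygen to squalene, had a log2 fold change of 0.05 (adjusted p = 0.581), and Msmo1 and Sc5d fell (-0.26 and -0.41).

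Chaperones of the endoplasmic reticulum were lower in 12 of 17 cases and higher in 0, with a median of -0.45. Hspa5, the main chaperone there, had counts of 8443, 8402 and 8108 in DMSO and 5719, 5630 and 5297 in low oxygen (log2 fold change -0.57 ± 0.038, edgeR adjusted p = 2.25e-11), and Sdf2l1 fell most (-0.70). Heat shock genes had 4 of 15 members higher (2 without low-oxygen replicate 2) and 0 lower, beside 12.3% and 9.78% of all genes. Among the heat shock genes called, Hspb7 changed most (0.84). Targets of the oxidative stress factor NRF2 had 6 of 18 members lower and 0 higher, with the peroxiredoxin gene Prdx1 at -0.31. The metal-binding metallothionein genes Mt1 and Mt2 rose by 0.80 and 1.03, and the zinc exporter gene Slc30a1, tested with them, did not pass. The glucose-responsive gene Txnip rose by 1.32, 1 of 3 tested members of its list.

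Nuclear genes of the respiratory chain had medians nearer 0 than mitochondrially encoded ones. Of 36 complex I subunit genes of the nucleus, 1 was higher and 6 were lower, and of 39 genes of complexes III, IV and V, 1 was higher and 9 were lower, with medians of -0.12 and -0.11. The lower calls rested partly on single samples: complex I had 2 without DMSO replicate 1, 3 without low-oxygen replicate 3 and 10 without low-oxygen replicate 2, and complexes III, IV and V had 5 without low-oxygen replicate 3. The 1 gene of complexes III, IV and V that was higher, Uqcrfs1, did not pass without DMSO replicate 1 or 3 or low-oxygen replicate 1 or 2 (adjusted p from 0.0926 to 0.212). The 1 complex I gene that rose, Ndufv3, did so by 0.66. Among 19 genes of the TCA cycle list, 4 were lower and 0 higher, with Idh3a and Mdh1, whose enzyme is the cytosolic malate dehydrogenase, both at -0.28. These shares of lower calls are set beside the 9.78% of all genes tested that were called lower.

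Transcripts of the mitochondrial genome took 2.84% to 3.07% of counts in DMSO and 2.40% to 2.60% in low oxygen, with no overlap. Of the 13, 7 were lower and 1 higher, and the median was -0.35. mt-Nd1, a complex I subunit, had counts of 17590, 19710 and 18140 in DMSO and 11610, 10900 and 11900 in low oxygen (log2 fold change -0.67 ± 0.047, edgeR adjusted p = 4.09e-11), whereas mt-Co2, a complex IV subunit, rose by 0.22. In mitochondrial biogenesis and mitophagy, Bnip3, Bnip3l, Lonp1, Nrf1 and Tfam were the 5 of 19 higher, the last 3 at 0.77, 0.36 and 0.27, and 0 were lower. Nrf1 did not pass without DMSO replicate 1 or 2 or low-oxygen replicate 2 or 3 (edgeR adjusted p from 0.0789 to 0.149). Tfam did not pass without DMSO replicate 2 (edgeR adjusted p = 0.132) or low-oxygen replicate 1 (0.176). Fatty acid oxidation and lipid storage had 4 of 28 members higher and 7 lower (2 higher with any 1 sample left out, and 3 or 4 lower without DMSO replicate 1 or 2 or low-oxygen replicate 3), beside 12.3% higher and 9.78% lower among all genes tested, with the lipid droplet gene Hilpda at 1.70 and the acyl-CoA synthetase gene Acsl1 at -0.64.

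The integrated stress response, the programme that the series followed under oligomycin, had 12 of 35 tested members higher and 2 lower under low oxygen alone, with a median of 0.14. With any 1 sample left out, 8 to 11 members were called higher. Vldlr, a lipoprotein receptor gene that is also a known HIF target, had counts of 202, 186 and 183 in DMSO and 779.7, 707 and 796 in low oxygen (log2 fold change 2.01 ± 0.074, edgeR adjusted p = 2.31e-16). The next were Gdf15 (0.92) and Trib3 (0.81). Ddit3, which encodes the stress factor CHOP, had 210.5, 181 and 204 and 275, 265 and 293 counts (log2 fold change 0.50 ± 0.086, edgeR adjusted p = 8.20e-05). Atf4 (0.02), Asns (-0.04) and Psph (0.00), a factor and 2 amino acid synthesis genes at the centre of the programme, did not pass.

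Immediate early genes had 11 of 16 members higher (as few as 8 with 1 sample left out) and 0 lower. The members called had log2 fold changes of 0.24 to 1.47, with Ier3 the highest and Myc at 0.69. Clock genes had 6 of 15 higher and 0 lower. Ciart, a repressor in the clock, went from 24.7, 26.4 and 34.5 to 125, 98.8 and 126 (log2 fold change 2.04 ± 0.25, edgeR adjusted p = 7.16e-07) and Rora, an activator that is also a HIF target, rose by 1.51, while Clock and Cry1 did not pass (0.01 and -0.09). Targets of p53 had 4 of 16 higher (2 without low-oxygen replicate 2 or 3) and 3 lower, with a median of 0.01, and chemokine and interferon genes had 2 of 11 higher and 2 lower (1 without DMSO or low-oxygen replicate 2), beside 12.3% and 9.78% of all genes, among them Tnfaip3 at 1.15 and Oasl2 at -1.97.

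The same oxygen contrast was made in myotubes that received oligomycin for the 10 hr, with 3 samples in 5% oxygen and 3 in the ordinary incubator, none of which is among the 6 samples above. The samples in 5% oxygen again came from column 9 of the plate and the others from columns 7 and 8, so oxygen and the incubator cannot be told apart in this contrast either, nor in what the contrasts share, and both contrasts call fewer genes with plate column as a term. There 4156 genes were called (33.3%; 2592 with the column term), 2091 higher (16.7%) and 2065 lower (16.5%). Of the 1536 genes that rose in low oxygen alone, 763 (49.7%) were also called higher with oligomycin and 194 (12.6%) were called lower. Of the 268 that rose by at least 2-fold, 179 (66.8%) were called higher in both. Of the 1222 that fell, 583 (47.7%) were also called lower, and of the 290 that fell by at least 2-fold, 195 (67.2%) were. Across the 2758 genes called in low oxygen alone, which are not independent of each other, the Pearson correlation of the log2 fold changes was 0.723, and over all 12491 genes it was 0.436.

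The oxygen effect itself differed with oligomycin at 2177 genes (17.4%), with 983 higher and 1194 lower with oligomycin than without (7.87% and 9.56%; edgeR interaction, adjusted p under 0.05). Among cell division genes, 88 of 121 fell and 4 rose with oligomycin and 15 had an interaction. Ccna2 and Plk1 had log2 fold changes of -2.91 and -2.76 with oligomycin, and their interaction had adjusted p of 0.515 and 0.649. Among sensors, glycolysis and other HIF targets together, 59 of 79 members rose in low oxygen alone and 62 with oligomycin, and 33 had an interaction.

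For several of these HIF targets the rise was larger with oligomycin, where the starting level was lower. Ak4 had counts of 16.6, 8.91 and 19.9 with oligomycin and 469.9, 521 and 409 with oligomycin in low oxygen, a log2 fold change of 4.98 against 2.85 without it (interaction adjusted p = 0.000134). Slc16a3 had 123, 103 and 98.5 and 912, 934 and 908, a log2 fold change of 3.11 against 1.31 (interaction adjusted p = 3.82e-09). In both genes the groups with oligomycin were separate, and the low-oxygen level with oligomycin was below that without it.

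For others the rise was smaller or turned. Hk2 had counts of 1893, 1713 and 1840 with oligomycin and 1397, 1244 and 1184 with oligomycin in low oxygen, so low oxygen lowered it there (-0.49, adjusted p = 8.96e-05) and raised it in DMSO (interaction adjusted p = 1.61e-10). Vegfa had 82.7, 68.6 and 51.7 and 72.6, 72.5 and 69.9, which overlapped, with a log2 fold change of 0.10 (interaction adjusted p = 0.00343). Egln3, Pgk1 and Car9 had similar values in both settings, at 1.90, 1.80 and 2.89 with oligomycin, and their interaction tests had adjusted p of 0.2, 0.715 and 0.645, which does not show that the effects were equal.

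**Figure D5:**
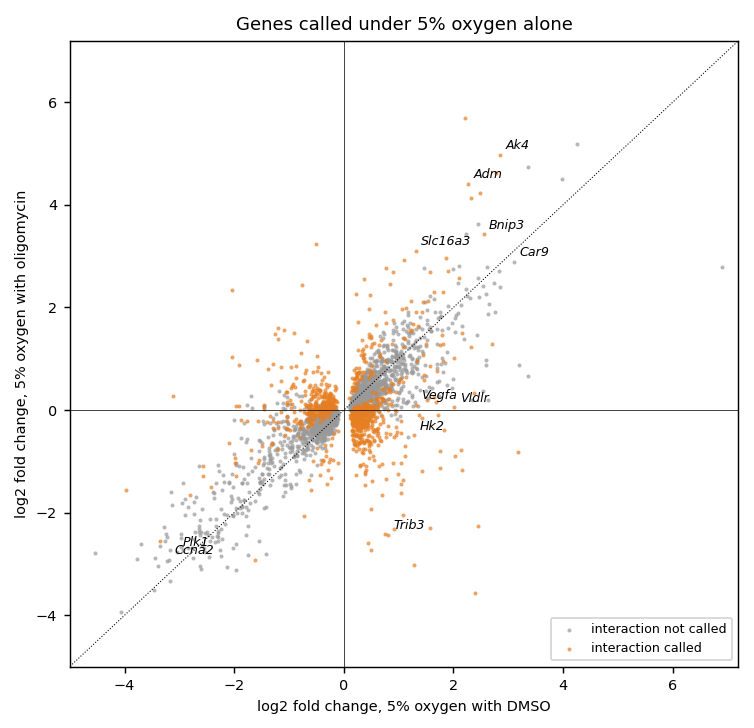
Each point is 1 of the 2758 genes called under 5% oxygen alone, with its log2 fold change without oligomycin on the horizontal axis and with oligomycin on the vertical axis. Orange points had an interaction at adjusted p under 0.05 and grey points did not, and the dotted line marks equal change. Ccna2 and Plk1 lie near the line at the lower left, Ak4, Adm and Slc16a3 lie above it, and Trib3 lies below 0 on the vertical axis.

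Integrated stress genes differed between the settings in nearly all members tested. Of 35 members, 33 fell in low oxygen with oligomycin and 0 rose, with a median of -1.14, and 33 had an interaction. Trib3 had counts of 2909, 2915 and 2867 with oligomycin and 478, 529 and 585 with oligomycin in low oxygen (log2 fold change -2.43), against a rise of 0.81 in DMSO (interaction adjusted p = 3.46e-15). The sterol list, with 25 of 31 lower in low oxygen alone, had 14 lower and 1 higher with oligomycin, and 11 interactions. The slow-twitch and cardiac list, chosen once the values were known and with 10 of 14 higher in low oxygen alone, had 12 higher and 1 lower with oligomycin, and 6 interactions, 3 in each direction. Myl2 had a log2 fold change of 2.03 with oligomycin and Myh7 of 1.29. The fast-twitch list, chosen in the same way, had 3 of 17 higher and 9 lower in low oxygen alone. With oligomycin 5 of its members were higher and 4 lower, and 7 had an interaction, all in the higher direction. Mitochondrially encoded transcripts, with 7 of 13 lower and 1 higher in low oxygen alone, had 9 higher and 0 lower with oligomycin, and 9 interactions.

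Other treatments of these myotubes in the ordinary incubator were each compared with the same 3 DMSO samples: the uncoupler BAM15, oligomycin, the complex I inhibitor piericidin and the complex III inhibitor antimycin. Because these comparisons share the DMSO samples with that of low oxygen, their values are set side by side only. For Egln3 the log2 fold change was 2.08 in low oxygen, 1.52 with BAM15, -0.52 with oligomycin, -0.83 with piericidin and -1.08 with antimycin. For Bnip3 the values in the same order were 2.55, 2.00, -1.36, -1.06 and -0.97, and for Pdk1 they were 1.90, 1.59, -1.24, -0.76 and -0.93. BAM15 and low oxygen were positive in these 3 genes, and the other inhibitors were negative.

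Of the 79 members of the sensor, glycolysis and other HIF target lists, 57 were called higher with BAM15, against 13.2% of all genes tested. The members called lower numbered 48 with oligomycin (16.4% of all genes), 41 with piericidin (4.84%) and 42 with antimycin (6.27%). Of the 121 cell division members, 30 were called lower with BAM15, where 12.2% of all genes were, 12 with oligomycin, 7 with piericidin and 23 with antimycin. Ccna2 had log2 fold changes of -3.19 in low oxygen, -0.23 with BAM15, -0.23 with oligomycin, -0.23 with piericidin and -0.52 with antimycin. For Myh7 the values in that order were 1.82, 1.14, 0.42, 0.77 and 0.79, all of them positive.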

How the data were processed

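Whole-transcriptome libraries were made by the authors with Smart-seq2 from polyA-selected RNA, without strand information, and sequenced reads were demultiplexed with bcl2fastq 2.20.0.422 and quantified with kallisto 0.44 against the mouse transcriptome (GRCm38), per the submitters' processing notes and the methods. The deposited table holds the authors' estimated counts per gene, as whole numbers without normalization, for 54146 genes and 4 transgenes; every column matched a labelled sample (0 did not). Such counts from nearly identical copies, overlapping genes or antisense genes cannot be told apart with certainty.

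From these counts, all 27 untransduced myotube samples (9 groups of 3) were fitted together with edgeR 4.0.16 (TMM scaling, quasi-likelihood F test) in R 4.3.3, with a filter that asked for 16 or more counts in all 3 replicates of some group. P-values were adjusted by Benjamini and Hochberg over all 12491 genes, with a threshold of 0.05, and the standard error is the absolute log2 fold change over the square root of F. Normalized counts used size factors of DESeq2 1.42.0. Totals ran from 9810751 to 11835417 counts in the 6 samples. Replicates of a group differed by more than counting noise and none were identical (chi-square per gene 2.6 to 12.3). The test was tried on simulated counts.

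Genes named were up to 15 per direction of largest change, and 5 per direction for the interaction, that were called, averaged 50 counts or more and, except for the interaction, had groups without overlap and no predicted gene name, together with members of the lists. The samples compared and the lists were chosen with earlier results of these data known, and the kinetochore, spindle, replication, histone, slow-twitch and fast-twitch lists, the motifs TTTGAA and CCAAT and the printed sequences were chosen after the values were seen. Gene coordinates are those of GENCODE M21 (GRCm38). Alternatives were DESeq2 size factors, no count filter, the DESeq2 Wald test, a replicate block, a fit of the compared groups only, outer well as a term, each replicate left out and, added after the data were seen, plate column as a term. Same-numbered DMSO and low-oxygen samples had correlations of their deviations of -0.00834, 0.00802 and 0.0304, so the numbers were not taken as pairs. Myoblasts, transduced myotubes and post-mitotic cells were not used here, and a few single genes are not reported here.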

Additional observations from a re-analysis of the deposited data

Results flagged for a closer look

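The effect of 5% oxygen differed between myotubes with and without oligomycin at 2177 genes by the test of the difference itself (edgeR interaction, adjusted p under 0.05). The 5 named genes with the largest positive interaction rose in low oxygen with oligomycin more than without. Scml4, a gene of a Polycomb-like protein, had an interaction of 4.38 on the log2 scale: low oxygen took its counts from 565, 549 and 599.6 to 115, 148 and 147 in DMSO and from 37.97, 31.2 and 36.8 to 177, 159.7 and 191 with oligomycin, so the direction was opposite in the 2 settings. Smim5, for a small membrane protein, had an interaction of 3.75, with counts of 266, 257 and 279 in DMSO, 172, 202 and 184 in low oxygen, 20.4, 17.8 and 18.9 with oligomycin and 179, 187 and 168 with both. Gpr35, a G protein-coupled receptor gene, had an interaction of 3.48, and rose in both settings, by 2.21 without and 5.69 with oligomycin. Fst, whose product follistatin binds myostatin and activin, had an interaction of 3.19, with counts of 898, 1029 and 1002 in DMSO, 708, 969.7 and 653 in low oxygen, 105, 127 and 98.5 with oligomycin and 961, 852 and 579.8 with both. The first 2 groups of Fst overlapped and the last 2 did not, and without low-oxygen replicate 2 its fall in low oxygen in DMSO passed (adjusted p = 0.00959). The unnamed gene 9430073C21Rik had an interaction of 2.94.

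The 5 with the largest negative interaction were all lower in low oxygen with oligomycin. Car6, a secreted carbonic anhydrase gene, had an interaction of -5.36, with 0 to 3 normalized counts in DMSO, 6.51, 2.94 and 7.24 in low oxygen, 236, 198 and 219.9 with oligomycin and 18.2, 14.7 and 17.2 with both. Cdsn, an adhesion gene of skin, had an interaction of -4.30, and B3gnt5, a glycosyltransferase gene, of -4.22. Atf3, a stress-induced transcription factor gene, had an interaction of -3.98, with counts of 36.5, 43.4 and 34.5 in DMSO, 55.4, 50.9 and 41.6 in low oxygen, 1932, 1833 and 1908 with oligomycin and 121, 156 and 183 with both. Ptgs2, which encodes cyclooxygenase 2, had an interaction of -3.87: it rose by 1.58 in low oxygen in DMSO and had a log2 fold change of -2.30 in low oxygen with oligomycin. The groups held 3 samples each, so no sample was tested for standing apart from its group.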

How the results depend on the processing

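The counts of genes called kept within 1.5 times of the reported value under every alternative except plate column as a term, and no gene named or listed changed direction with a call. For 5% oxygen against DMSO, 2758 genes became 2735 with DESeq2 size factors, 2229 without the count filter, 2614 with the DESeq2 Wald test, 2694 with the replicate block, 2496 with only the compared groups fitted and 2838 with outer well as a term. With plate column as a term, chosen after seeing the data, 1356 genes were called, and 2592 with oligomycin and 2145 for the interaction. The column term takes 3 degrees of freedom; what else lies behind the lower counts was not tested. Besides the lists given with the main counts, it took genes called higher from 5 to 3 (mitochondrial biogenesis; atrophy and growth), from 4 to 1 (heat shock; calcium handling; p53 targets), from 4 to 2 (fatty acid oxidation), from 3 to 1 (pyruvate dehydrogenase; fast-twitch) and from 2 to 1 (cell cycle), and genes called lower from 7 to 4 (fatty acid oxidation), from 6 to 3 (NRF2 targets), from 4 to 2 (atrophy and growth), from 4 to 1 (TCA cycle), from 3 to 1 (calcium handling; p53 targets; vascular signals), from 3 to 0 (myogenic factors), from 2 to 0 (integrated stress; chemokines) and from 1 to 0 (pyruvate dehydrogenase). Leaving out 1 replicate gave 2254 to 2422. Under 5% oxygen with oligomycin, 4156 became 3251 to 4158, and 3386 to 4037 with 1 replicate left out, and the interaction, 2177, became 1862 to 2210, and 1847 to 2178. Of 412 called list and named genes, 281 kept their call with the column term and 364 to 410 under each other setting, and 0 reversed. Of the 30 genes named for 5% oxygen against DMSO, Ppp1r3b lost its call with the column term (adjusted p = 0.0592), and the other 29 kept theirs throughout. The replicate block changed the count for the oligomycin setting to 4052 and for the interaction to 2135. The share of higher among called genes was 55.7%, and 49.2% without low-oxygen replicate 2, the lowest of any setting. Among lists, complex I genes called lower went from 6 to 10 with the DESeq2 Wald test or only the compared groups fitted, and collagens called higher from 3 to 5 with only these groups, no filter or the well term. Genes with a few counts per sample, such as Nos2, Slc2a3 or Pvalb, rest on little depth.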
